A study of Mus musculus with 1528 samples.

Results

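*Saa3*, *Acod1*, *Gpr84*, *Lcn2* and *Slpi* are 5 of the 55421 genes counted in single bone marrow-derived macrophages (BMDMs), and their rows were followed from cell to cell by gene identifier. The genes were picked with their counts in IL4+IL13+TNF cells against IL4+IL13 cells already known, so every difference of these 5 genes between the treatments is given here as a description, with no test. Cells came from 2 wild-type C57BL/6 mice, were grown in CSF1 for 7 d and received either IL4+IL13 or these cytokines together with TNF (IL4+IL13+TNF), at 10 ng/ml each, for 24 h. No untreated cells and no cells given TNF alone were analysed here, so the effect of IL4+IL13 on these genes cannot be read from the data. Single live cells went into 4 plates, with mouse 1 on plates 2 and 3 and mouse 2 on plates 4 and 5, and each plate held IL4+IL13 cells in rows A to H and IL4+IL13+TNF cells in rows I to P. Treatment and half-plate can therefore not be told apart, nor can the mouse and its pair of plates.

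As background, TNF acts on macrophages through NF-κB and MAP kinases, which first switch on genes for regulators such as IκBζ and C/EBPδ and, through them, a later group of secreted host-defence proteins. *Saa3* encodes serum amyloid A3, an acute-phase protein carried on lipoproteins, *Lcn2* encodes lipocalin-2, which binds the siderophores with which bacteria take up iron, and *Slpi* encodes an inhibitor of neutrophil serine proteases. *Acod1* encodes the mitochondrial enzyme that makes itaconate from cis-aconitate, and *Gpr84* encodes a Gi-coupled receptor for medium-chain fatty acids. All are known as markers of activated macrophages or neutrophils.

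In the mm10 build the genes lie on 4 chromosomes, *Saa3* at chr7:46711998-46715700 on the minus strand, *Acod1* at chr14:103046977-103056573 on the plus strand, *Gpr84* at chr15:103308235-103310612 on the minus strand, *Lcn2* at chr2:32384633-32388252 on the minus strand and *Slpi* at chr2:164354070-164389095 on the minus strand. The 250 bases before each RefSeq start (GRCm38.p6; all 5 genes matched) were searched on both strands for short motifs. Shown are the stretches of these windows up to the first base that Ensembl puts in an exon of the gene, for the 3 genes that were found together in IL4+IL13+TNF cells and for *Slpi*, which was less correlated with them. The RefSeq start of *Slpi* lies inside the longer Ensembl gene, so its window is not upstream of every Ensembl transcript, and it holds no exon base. Each is written 5′ to 3′ on the strand of the gene, with motif matches in capitals, and positions count back from -1 at the base before the RefSeq start.
Saa3, chr7:46715701-46715926: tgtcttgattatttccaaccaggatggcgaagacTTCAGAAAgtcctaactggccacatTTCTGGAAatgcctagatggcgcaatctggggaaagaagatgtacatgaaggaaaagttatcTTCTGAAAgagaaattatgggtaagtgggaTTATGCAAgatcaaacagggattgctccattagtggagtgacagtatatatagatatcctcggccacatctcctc
Acod1, chr14:103046762-103046976: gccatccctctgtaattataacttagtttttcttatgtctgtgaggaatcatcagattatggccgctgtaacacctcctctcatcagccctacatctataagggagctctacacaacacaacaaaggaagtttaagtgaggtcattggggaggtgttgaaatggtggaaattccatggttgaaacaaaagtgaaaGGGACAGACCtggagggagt
Gpr84, chr15:103310613-103310688: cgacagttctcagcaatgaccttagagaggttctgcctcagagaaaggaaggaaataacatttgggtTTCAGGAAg
Slpi, chr2:164356508-164356757: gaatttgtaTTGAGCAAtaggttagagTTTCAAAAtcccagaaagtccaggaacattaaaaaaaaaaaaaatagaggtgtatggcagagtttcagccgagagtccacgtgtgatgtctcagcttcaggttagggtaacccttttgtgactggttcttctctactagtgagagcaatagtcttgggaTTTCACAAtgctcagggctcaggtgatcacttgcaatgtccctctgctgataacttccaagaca

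The capitals in *Saa3* are 4 matches to TTNNGNAA, the core letters of a C/EBP site, which begin at -216, -191, -129 and -99. At least 4 such matches stood in 0.801% of the 32851 promoter windows of the same length and at least 1 in 36.8%. The capitals in *Acod1* are a match to GGGNNNNNCC, an NF-κB site, beginning at -55, and this motif was in 45.8% of all windows. *Acod1* also had TATAAA at -28, past the stretch shown, and 12.4% of windows held it. *Gpr84* had C/EBP matches at -183 and -48, the latter past the stretch shown, and at least 2 were in 12.2% of windows. *Slpi* had 3 C/EBP matches, at -241 on the strand of the gene and at -223 and -64 on the other strand, and at least 3 were in 3.12% of windows. Of the *Lcn2* window, 197 of the 250 bases are exonic in Ensembl and none are shown. It held an NF-κB match at -102 and a C/EBP match at -216, both on the other strand, and a match to the STAT6 motif (TTC and GAA set 4 bases apart) at -156, a motif in 5.85% of windows. None of the 5 windows held the AP-1 motif TGANTCA, which 6.75% of windows held, and no match overlapped another. A match of letters is not evidence that a factor binds there.

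After removal of 138 wells, 1386 of 1524 remained, of which mouse 1 gave 357 IL4+IL13 and 347 IL4+IL13+TNF cells and mouse 2 gave 333 and 349. They held 200235 to 6122892 fragments each, with medians of 477871 and 464673 by treatment. To compare shares of cells, each cell was thinned to 339000 fragments, which left 1250 cells, and a gene was called found where at least 1 fragment remained. Most macrophage markers were present as labelled, with the 8 of the list (*Csf1r*, *Adgre1*, *Cd68* and others) found in a median of 99.8% and 99.6% of cells by treatment. Less frequent were *Mertk*, in 32.7% and 22.5% of cells, and *Fcgr1*, in 62.5% and 33.3% (means of the mice). Neutrophil markers summed to 19.6 to 57.8 CPM (fragments of a gene per 1000000 gene fragments) per plate with IL4+IL13 and to 49.6 to 104 CPM with IL4+IL13+TNF, against 14710 to 28690 CPM for macrophage markers, and *Csf3r* was the neutrophil marker found most often. Dendritic cell markers summed to 8.80 to 21.2 CPM and to 9.29 to 288.5 CPM. Of the 4 tested, 1 rose with TNF and 0 fell, and this was *Ccr7* (log2 8.45, adjusted p = 0.00555, edgeR with the mouse as a block). *Cd209a* and *Siglech* were lower with TNF, at 1.41 and 1.40 CPM against 0.137 and 0.0111 CPM (means of the mice). *Zbtb46*, *Xcr1* and *Dpp4* were higher. *Flt3* was the dendritic cell marker found most often, in 94.2% and 92.1% of cells by treatment. As a measure of stray fragments, 8 genes of other tissues such as *Alb* and *Krt5* were found without thinning in 0.145% to 2.32% of cells without TNF and 0% to 1.72% of cells with it. Shares have 95% intervals by the exact Clopper-Pearson method, and these reflect counting error alone, since PCR copies are counted.

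*Saa3* was found in a minority of IL4+IL13 cells at the level of about 1 fragment and in about 4 to 6 of every 10 IL4+IL13+TNF cells at levels that ranged over more than 3 orders of magnitude. With IL4+IL13 the share was 8.43%, 6.63%, 9.26% and 17% in plates 2, 3, 4 and 5. With IL4+IL13+TNF it was 42.2%, 43.4%, 45.5% and 59.0%. All 4 plates with TNF lay above all 4 without, and the mean over mice was 10.2% ± 3.83 against 47.8% ± 6.87 (SD, n = 2). Without thinning the shares were 13.8% ± 6.42 and 51.9% ± 5.28. When at least 5 fragments were required, 0.636% ± 0.474 of IL4+IL13 cells and 31.2% ± 3.03 of IL4+IL13+TNF cells remained.

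The IL4+IL13 cells with *Saa3* had a median of 2.30, 2.04, 2.30 and 2.09 CPM by plate, which is close to the worth of 1 fragment. In IL4+IL13+TNF cells with *Saa3* the median was 34.8, 36.9, 24.1 and 39.3 CPM and the highest cell of each plate reached 5350, 3181, 2427 and 3040 CPM. The 5% of IL4+IL13+TNF cells with the most *Saa3* held 69.0%, 61.1%, 70.5% and 51.4% of the plate's summed *Saa3* CPM. Over all kept IL4+IL13+TNF cells of mouse 1, 51.9% had none, 17.6% had under 10 CPM, 13% had 10 to 100 CPM, 15.3% had 100 to 1000 CPM and 2.31% had more. In mouse 2 the same classes held 44.4%, 22.3%, 16.3%, 14% and 2.87% of cells. The level in positive cells thus had no single typical value.

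**Figure D1:**
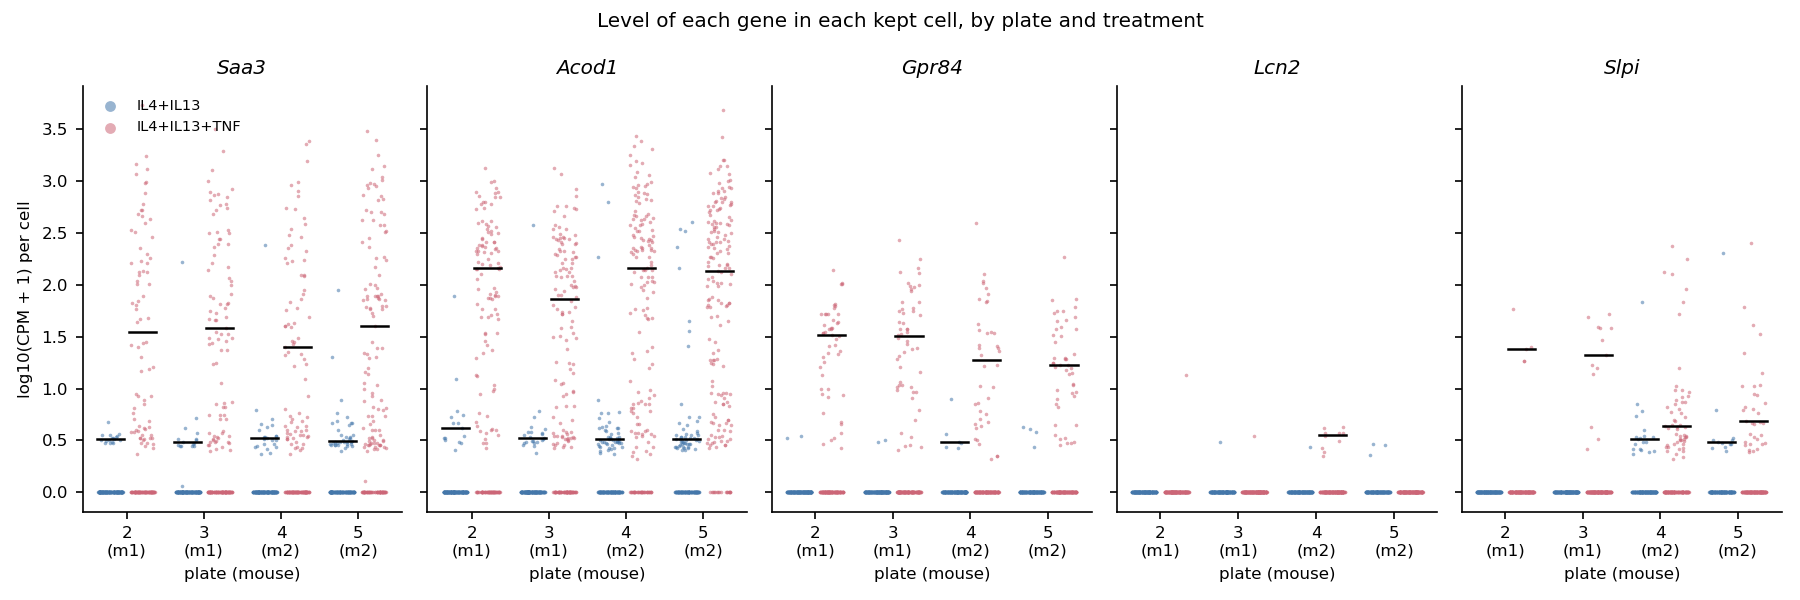
Each point is 1 kept cell, the vertical axis is log10(CPM + 1), and the horizontal axis gives the plate with its mouse (m1, m2) for IL4+IL13 (blue) and IL4+IL13+TNF (red). Black lines are medians of cells with the transcript where there were at least 5, and lie at 24.1 to 39.3 CPM for *Saa3* with IL4+IL13+TNF and near 2 CPM with IL4+IL13.

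*Acod1* was the member found most often in IL4+IL13+TNF cells, and its share of cells differed most between the mice in percentage points. The share of IL4+IL13 cells with *Acod1* was 4.82%, 7.83%, 23.5% and 25.9% in plates 2 to 5, low in mouse 1 and higher in mouse 2. With IL4+IL13+TNF it was 60.9%, 61.1%, 77.9% and 88.2%, again higher in mouse 2. The treatments did not overlap, at 15.5% ± 12.9 against 72.2% ± 15.8 (SD, n = 2). At least 5 fragments were present in 1.93% ± 2.30 and 56.6% ± 11 of cells. The median in IL4+IL13+TNF cells with *Acod1* was 143, 71.8, 143 and 134 CPM by plate, plate 3 being the lowest, and the highest cell had 4842 CPM.

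*Gpr84* was close to absent without TNF and present in a minority of cells with it. In IL4+IL13 cells it was found in 0.602%, 0.602%, 1.24% and 1.36% by plate, no cell had 5 or more fragments at equal depth, and the unthinned share of 2.06% ± 1.33 (1.12% and 3% by mouse) was near that of the most frequent gene of other tissues. In IL4+IL13+TNF cells the share was 32.0%, 28%, 24.8% and 26.7%, with 27.8% ± 2.74 over mice (SD, n = 2) and 17.9% ± 4.07 at 5 or more fragments. Here mouse 1 had the higher values, opposite in order to *Acod1*. The level in positive cells was lower than that of *Saa3* and *Acod1* on the scale of the gene counts, at 31.5, 30.8, 18.1 and 15.7 CPM by plate. *Gm49482*, an antisense gene that overlaps *Gpr84*, had 0 fragments in the kept cells, although counting did not use the strand.

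The share of IL4+IL13 cells with *Slpi* was 0%, 0%, 8.64% and 6.12% by plate. With TNF added, the share was 3.13%, 6.29%, 25.5% and 14.9%. In mouse 1, 0 of 332 IL4+IL13 cells at equal depth had it, which allows a share of up to 0.904% (3 counts of the total). The share was higher with IL4+IL13+TNF on each plate, but plates of the 2 treatments overlapped, with means of 3.72% ± 5.26 and 12.4% ± 10.6 (SD, n = 2). Within the mice the difference was 4.95 percentage points in mouse 1 and 12.5 in mouse 2, a mean of 8.72 ± 5.33 (SD, n = 2). At 5 or more fragments the IL4+IL13+TNF plates were closer together, at 3.13%, 5.14%, 4.14% and 2.48%, against 0% to 0.680% for IL4+IL13. The mouse 2 cells with *Slpi* had a median of only 3.31 and 3.82 CPM by plate, whereas the fewer mouse 1 cells had 22.8 and 20 CPM.

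*Lcn2* was at the limit of detection in these cells. Over the 1386 cells it had 21 fragments. Mouse 1 gave 1 without and 6 with TNF, and mouse 2 gave 4 and 10. The share at equal depth was 0%, 0.602%, 0.617% and 0.680% by plate with IL4+IL13, against 0.781%, 0.571%, 4.14% and 0% when TNF was added. A single IL4+IL13+TNF cell of plate 2 had 5 fragments (12.4 CPM), and every other cell with *Lcn2* had 1. These shares were within the range of the genes of other tissues except for the IL4+IL13+TNF cells of plate 4, 6 of 145 cells at equal depth. Without thinning there were 10 such cells, and all stood in row J.

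**Figure D2:**
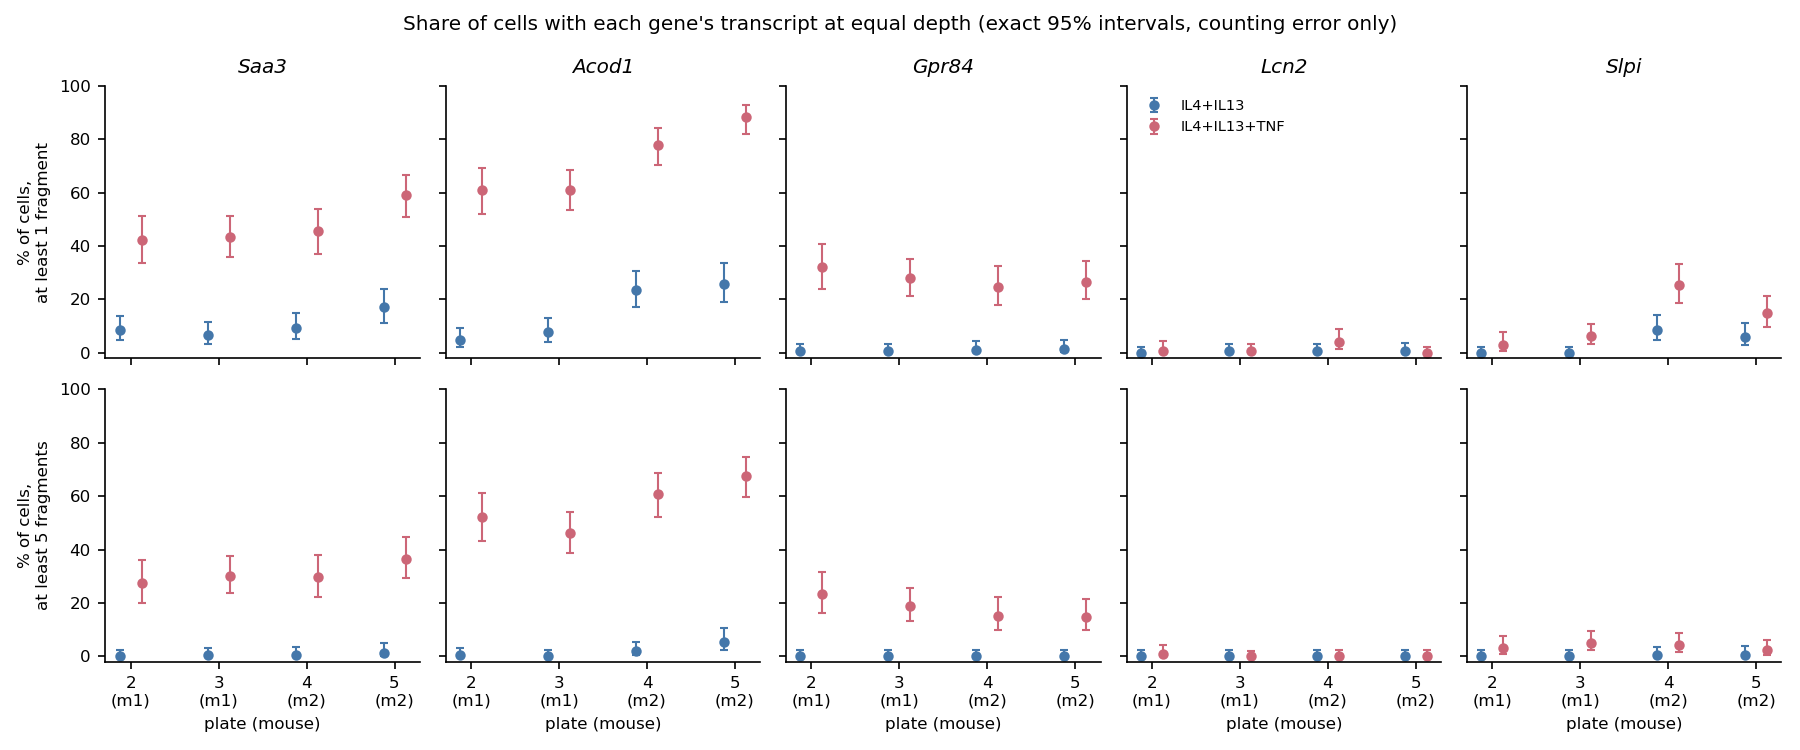
Share of cells in percent with at least 1 fragment (upper panels) and at least 5 fragments (lower panels) after each cell was thinned to 339000 fragments, by plate and mouse, for IL4+IL13 (blue) and IL4+IL13+TNF (red). Points are shares of the cells of 1 plate and bars exact 95% intervals. In the upper panels every red point lies above every blue point for *Saa3*, *Acod1* and *Gpr84* and not for *Lcn2* and *Slpi*. In the lower panels this holds for the points of *Slpi* too, but its bars overlap on plates 2, 4 and 5, and its red points rest on 4 to 9 cells each.

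Per kilobase of exon, so that genes can be compared, the mean level over IL4+IL13+TNF cells was 75.3 ± 42.5 CPM per kb for *Acod1*, 45.5 ± 1.70 for *Saa3*, 5.78 ± 1.73 for *Gpr84*, 2.50 ± 1.98 for *Slpi* and 0.0210 ± 0.00663 for *Lcn2* (SD, n = 2 mice). *Acod1* and *Saa3* did not differ beyond the spread between the mice, and *Gpr84* was above *Slpi* in both mice. With IL4+IL13 the order was *Acod1* (2.31 ± 2.42 CPM per kb), *Slpi* (0.433 ± 0.612), *Saa3* (0.412 ± 0.224), *Gpr84* (0.0317 ± 0.0239) and *Lcn2* (0.00500 ± 0.00397), and the first 3 did not differ beyond their spread. A sum or mean over cells does not tell more positive cells from more transcript per cell, so these levels stand beside the shares above.

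Summed over the cells of each mouse, *Saa3* went from 115 to 20188 fragments in mouse 1 and from 275 to 22593 in mouse 2, 205-fold and 79.0-fold higher with IL4+IL13+TNF after scaling. *Acod1* went from 201 to 19868 and from 1639 to 49911 fragments, 116-fold and 29.3-fold. *Gpr84* went from 4 to 2103 and from 13 to 1454, 615-fold and 108-fold, with counting intervals of 240 to 2259 and 62.7 to 202. *Slpi* had 0 and 206 fragments in mouse 1, at least 80.3-fold higher when the 0 is set to the 3 fragments per sum that it allows, and 195 and 796 in mouse 2, 3.92-fold. For *Lcn2* the ratios of 7.02 and 2.4 had counting intervals of 0.852 to 323 and 0.693 to 10.5, which include 1. All counting intervals treat fragments as independent. PCR copies are counted and many fragments can come from 1 cell, so these intervals understate the spread. On these sums, 3 of the 4 members tested had every IL4+IL13+TNF plate above every IL4+IL13 plate, as had 6.14% of the 17026 genes compared by plate, while 5.16% had every plate below. Over all 17034 genes tested, edgeR called 0.00587% between the treatments (only *Clec4e* had an adjusted p under 0.05) and 3.82% with the mouse as a block. The members were chosen on this contrast, so nothing is read from their place in these counts.

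With IL4+IL13 alone, most transcripts of these genes came from very few cells. In mouse 2, 1528 of 1639 *Acod1* fragments (93.2%) were in 11 of 333 cells, the highest of which had 428, and in mouse 1, 159 of 201 (79.1%) were in 3 of 357 cells. For *Saa3*, 1 cell of mouse 1 held 81 of 115 fragments and 3 cells of mouse 2 held 206 of 275. Both IL4+IL13 cells of mouse 2 with high *Slpi*, with 120 and 39 fragments, held 159 of 195. No IL4+IL13 cell with 5 or more fragments of *Saa3* had 5 or more of *Acod1*. With IL4+IL13+TNF, over 99% of the *Saa3* and *Acod1* fragments were in cells with 5 or more.

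Most IL4+IL13 cells held none, 324 of 357 in mouse 1 and 272 of 333 in mouse 2 for *Saa3* and 319 and 229 for *Acod1*. Apart from the few cells with 5 or more described above, the rest held 1 to 4 fragments, and these low counts varied in part with the position of the well. In IL4+IL13 wells with fewer than 5 *Saa3* fragments, the *Saa3* CPM correlated with the *Saa3* fragments of the other wells of the same plate column, which include IL4+IL13+TNF wells, with Spearman's rho of 0.174, 0.211, 0.181 and 0.243 in plates 2 to 5. *Saa3* was found in 12.6% to 29.1% of wells in columns above the plate's median and in 4.35% to 15.2% of wells in columns below it. For *Acod1*, rho was 0.159, 0.219, 0.213 and 0.344, and the gene was found in 12.1% to 41.1% of wells in the higher columns and in 3.13% to 20% in the lower. Correlation with the row of the plate was between -0.184 and 0.138 for these genes. These are descriptions over wells that share a plate, and the part of well position in the shares at 1 fragment was not tested; the shares at 5 or more fragments leave these wells out.

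Low counts of *Slpi* and *Lcn2* followed rows instead. On plate 5, all 25 IL4+IL13+TNF cells with 1 to 4 *Slpi* fragments stood in rows I (13 cells) and M (12 cells), of 22 kept wells each, and on plate 4, 17 of 45 stood in row J. On plate 5, the 9 cells with 5 or more were in 5 rows, with 3 in row I and 2 in row M. On plate 4, the 10 IL4+IL13+TNF cells with 1 *Lcn2* fragment were in row J, of 23 kept wells there, and 4 of the 5 IL4+IL13 cells with *Lcn2* on plates 3 to 5 were in row E. The part of the plate row in these counts was not tested.

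**Figure D3:**
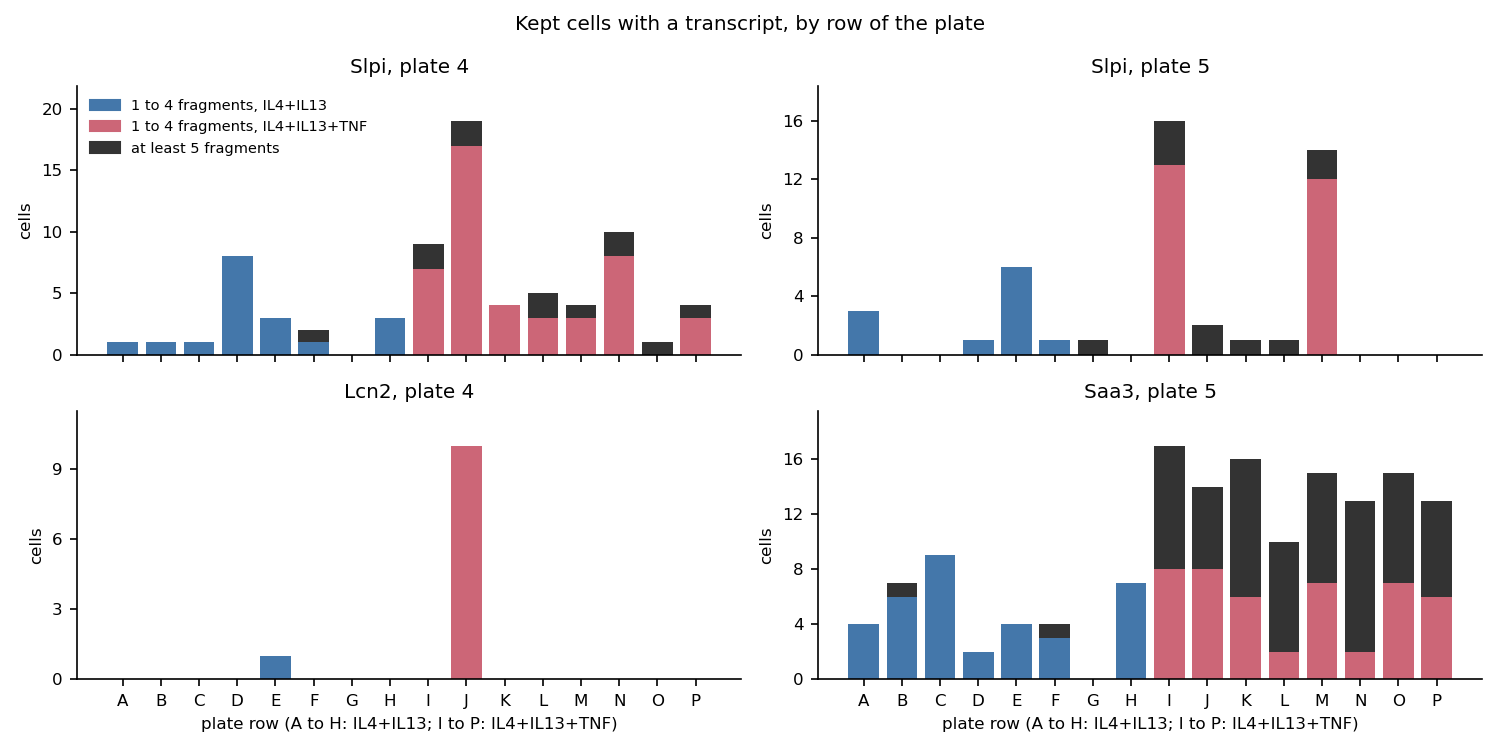
Number of kept cells with a transcript (vertical axis) by plate row (horizontal axis) for *Slpi* on plates 4 and 5, *Lcn2* on plate 4 and *Saa3* on plate 5. Blue and red mark cells with 1 to 4 fragments in IL4+IL13 and IL4+IL13+TNF rows and dark grey cells with at least 5; on plate 5, low *Slpi* counts with IL4+IL13+TNF stand in rows I and M, while *Saa3* is in every IL4+IL13+TNF row.

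Whether the mice differed was asked in a separate fit of 8 sums, 1 for each plate and treatment, which is not the contrast that chose the genes. The plates of a mouse are technical repeats, so a p here covers only the spread between plates. With IL4+IL13, *Acod1* was at 1.11 CPM in mouse 1 and 9.72 CPM in mouse 2, a log2 difference of 3.16 (SE 0.33, adjusted p = 0.0132, quasi-likelihood test of edgeR, adjusted by Benjamini-Hochberg), when 6.85% of all 17026 genes passed. Its call was lost when plate 2, 4 or 5 was left out (adjusted p = 0.0752, 0.073 and 0.0632 by edgeR) and kept without plate 3 (0.0318), with the log2 difference between 2.68 and 3.88. *Slpi* had 0 fragments in mouse 1 and 195 in mouse 2, at least 70.1-fold higher, and *Gpr84* had 4 and 13. Both genes met the filter on low counts only through the IL4+IL13+TNF cells, so no p is given for them here. *Saa3* (log2 1.38, SE 0.64, adjusted p = 0.208 by edgeR) did not pass. As most of these fragments came from the few cells described above, the mouse difference in *Acod1* and *Slpi* sums rests on 11 and 2 cells of mouse 2.

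With IL4+IL13+TNF none of the 4 members tested passed between the mice, when 0.211% of all genes did. *Saa3* was at 130 and 129 CPM in mouse 1 and mouse 2, a log2 difference of -0.05 (SE 0.50). *Acod1* was at 128 and 285 CPM (log2 1.13, SE 0.28, adjusted p = 0.106 by edgeR and 0.00346 by DESeq2), and its share of cells was 61.1% (55.3% to 66.6%) against 83.3% (78.7% to 87.3%). *Gpr84* was at 13.5 and 8.29 CPM (log2 -0.71, SE 0.33, adjusted p = 0.297 by edgeR), and *Slpi* at 1.33 and 4.54 CPM (log2 1.83, SE 0.64, adjusted p = 0.194 by edgeR). A test of whether the TNF difference itself differed between the mice called 0 of 17026 genes (0%) by edgeR, 1034 at an unadjusted p under 0.05 and 129 by DESeq2. The difference in log2 fold change, mouse 2 minus mouse 1, was -2.03 (SE 0.43) for *Acod1*, with an adjusted p of 0.638 by edgeR and 0.0015 by DESeq2. For *Saa3* it was -1.42 (SE 0.81, adjusted p = 0.871 by edgeR). No value is given for *Gpr84* and *Slpi*, for the same reason.

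Within IL4+IL13+TNF cells, *Saa3*, *Acod1* and *Gpr84* tended to be found together, without marking the same cells. Correlations are Spearman's rho of CPM across the 164 to 183 cells of a plate, which share a plate, a mouse and a range of depths, and carry no p. *Saa3* and *Acod1* had a rho of 0.418, 0.158, 0.279 and 0.139 in plates 2 to 5. *Saa3* and *Gpr84* had 0.310, 0.196, 0.276 and 0.251. *Acod1* and *Gpr84* had 0.254, 0.277, 0.309 and 0.0320, so plate 5, where *Acod1* was found in 88.2% of cells, stood below the others. These 3 pairs were above 0 in every plate.

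Over all IL4+IL13+TNF cells the correlations of *Slpi* were lower. Its mean rho over plates was 0.105 with *Acod1* (0.0307 to 0.172), 0.0451 with *Saa3* (0.00636 to 0.0901) and 0.0308 with *Gpr84* (-0.057 to 0.0998). *Lcn2* was found in too few cells for a value to be read. In IL4+IL13 cells the mean rho was 0.033 for *Saa3* and *Acod1*, both of which were at about 1 fragment in most cells that had them.

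At 5 or more fragments, counted in all kept cells without thinning, each of these pairs was found together more often on average over plates, *Slpi* included. Cells with 5 or more *Saa3* fragments had a median of 412737 to 530739 fragments in all by plate, against 411658 to 481509 in cells without *Saa3*. The part of depth in these shares was not tested. *Acod1* was present in 83.0%, 62.1%, 77.1% and 79.1% of *Saa3* cells and in 38.5%, 38.4%, 52.0% and 60.6% of the other IL4+IL13+TNF cells of plates 2 to 5. *Gpr84* was present in 40.4%, 27.6%, 25% and 29.9% of *Saa3* cells and in 13.7%, 19.2%, 8.80% and 12.8% of the others. *Gpr84* was present in 25.8% of *Acod1* cells and 11.7% of the others on average over plates, with no difference on plate 5 (19.3% in both). *Slpi* was present in 8.36% of *Saa3* cells against 3.59% of the others, in 6.92% against 2.51% for *Acod1* and in 8.77% against 4.20% for *Gpr84*, higher on all 4 plates in each case but on only 5 to 11 *Slpi* cells per plate. Most *Saa3* cells therefore had no *Gpr84*, and 38.4% to 60.6% of cells low in *Saa3* had *Acod1*. At equal depth, both *Saa3* and *Acod1* were found in 38.7% of cells on average over plates, when the product of their shares was 34.9%. Both *Saa3* and *Gpr84* were found in 16.4% (product 13.2%), and both *Acod1* and *Gpr84* in 23% (product 19.9%), with the excess missing for the latter on plate 5 (23% against 23.6%).

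**Figure D4:**
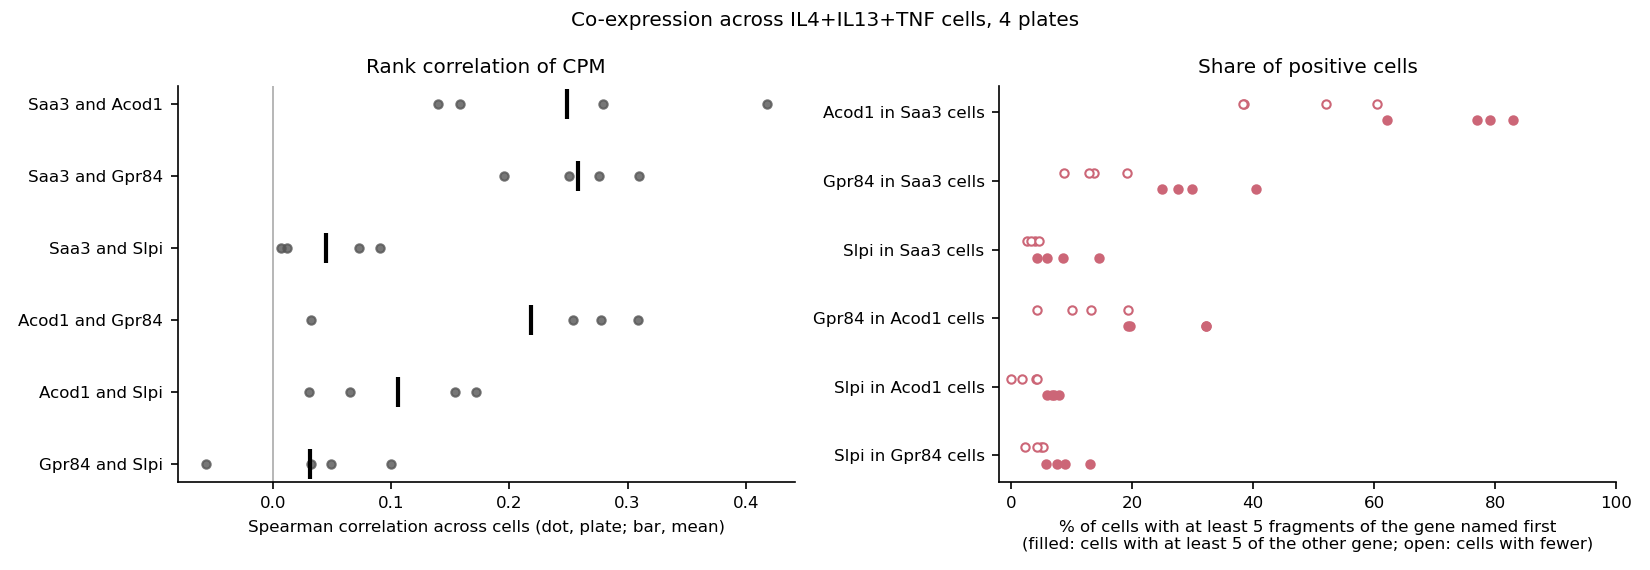
Left, Spearman correlation of CPM across IL4+IL13+TNF cells (horizontal axis) for each pair of members except those with *Lcn2*; dots are the 4 plates and bars their mean, 0.249, 0.258 and 0.218 for the 3 pairs of *Saa3*, *Acod1* and *Gpr84*. Right, percent of cells, without thinning, with at least 5 fragments of the gene named first, among cells with at least 5 fragments of the other gene (filled) and among the rest (open). Filled lies above open on every plate for *Acod1* in *Saa3* cells.

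The number of members found in a cell at equal depth set the mice apart as well. With IL4+IL13+TNF, 22.4% of mouse 1 cells and 6.21% of mouse 2 cells had none of the 5, where independent genes of the same shares would leave 14.8% and 4.6%. At least 3 were found in 16.5% and 24.2% of cells, and no cell had all 5. With IL4+IL13, 85.8% and 62.5% of cells had none. Requiring 5 fragments, 39.6% and 26.5% of IL4+IL13+TNF cells had none and 9.90% and 8.17% had at least 3. IL4+IL13+TNF cells with 5 or more *Saa3* fragments had a median of 8028 to 8283 detected genes by plate and those without *Saa3* 7495 to 8146, higher in 3 of 4 plates, and the part of the number of detected genes in these correlations was not tested. Macrophage markers summed to 29190 to 42740 CPM in the *Saa3* cells and to 22020 to 25230 CPM in cells without it. Most of this sum is *Lyz2* (23410 CPM with IL4+IL13+TNF, mean of the mice). Of the 8 markers, only 5, 6, 6 and 5 were higher in the *Saa3* cells of plates 2 to 5. Dendritic cell markers summed to 8.68 to 66.2 CPM and 9.99 to 469 CPM, lower in the *Saa3* cells of every plate. Of these 8 markers, 2, 2, 3 and 2 were higher in the *Saa3* cells of plates 2 to 5. Over all IL4+IL13+TNF cells *Ccr7* was at 105 CPM and *Flt3* at 7.10 CPM (means of the mice), so the sum depends mostly on *Ccr7*.

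Among 14046 genes, those found in 10% or more of IL4+IL13+TNF cells, the genes most like *Saa3* were *Clec4e* (mean rho over plates 0.341, 0.280 to 0.460), *Sod2* (0.303), *Cybb* (0.266), *Clec4d* (0.263) and *Gpr84* (0.258). *Clec4e* and *Clec4d* encode the C-type lectins Mincle and MCL, *Sod2* the mitochondrial superoxide dismutase and *Cybb* the catalytic subunit of the phagocyte NADPH oxidase. The genes most like *Acod1* were *Sod2* (0.408, 0.314 to 0.499), *Clec4e* (0.397), *Cybb* (0.347), *Clec4d* (0.342) and the guanylate-binding protein gene *Gbp2* (0.298). For *Gpr84* they were *Sod2* (0.312, 0.285 to 0.331), *Clec4e* (0.300), the matrix protein gene *Tgfbi* (0.265), *Saa3* (0.258) and *Clec4d* (0.253). *Clec4e*, *Sod2* and *Clec4d* were thus among the 5 closest genes of all 3 members. At the other end stood *Csf2rb2* (-0.220) and the cystatin C gene *Cst3* (-0.209) for *Saa3*, *Cst3* (-0.263) and *Aplp2* (-0.253) for *Acod1*, and the proton pump gene *Atp6v0d2* (-0.312) and *Lgals3* (-0.256) for *Gpr84*.

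The genes nearest to *Slpi* were others, *S100a8* (mean rho 0.262), *Thbs1* (0.239), *Apoe* (0.184), *Stmn2* (0.172) and *F13a1* (0.171). The values moved with the plate, from 0.0477 to 0.554 for *S100a8* and from -0.0591 to 0.364 for *Thbs1*. *S100a8* encodes a calprotectin subunit abundant in neutrophils and monocytes, and neutrophil markers summed to 226, 68.1, 201 and 75.3 CPM in cells with 5 or more *Slpi* fragments on plates 2 to 5 and to 50.5, 49.0, 97.9 and 84.3 CPM in cells without. Of the 12 neutrophil markers, only 3, 2, 4 and 2 were higher in the cells with 5 or more *Slpi* fragments. In IL4+IL13+TNF cells *Csf3r* was at 59.4 CPM and *S100a8* at 2.975 CPM (means of the mice), so the sum says little of *S100a8*. There were only 5 to 11 cells with 5 or more *Slpi* fragments per plate, and the part of other cell types in the *Slpi* counts was not tested. The lowest were *Gm5654* (-0.135) and *Epb41l1* (-0.131). *Lcn2* was found in too few cells for such a list.

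Genes linked to each member by function were counted from lists. The lists were set with earlier results known, and none of these counts is a test of a list. By the fit without a block only *Clec4e* passed, so the counts below are those of edgeR with the mouse as a block, where 3.82% of genes passed and the median log2 fold change of all genes was 0.01. Around *Saa3*, the genes of its own cluster on chromosome 7, *Saa1*, *Saa2* and *Saa4*, were below the count filter, at 0 to 0.228 CPM in every plate. Of 12 tested genes that C/EBP factors or IκBζ are known to drive, or that encode these factors, 5 rose and 0 fell, with a list median of 2.37. These were the haptoglobin gene *Hp* (log2 6.40), complement *C3* (5.44), *Il6* (5.13), the phospholipase gene *Pla2g7* (2.72) and the IL1 receptor antagonist gene *Il1rn* (1.56). *Hp* and *Il6* entered the test only because they passed the 5% filter when TNF was added. Their shares of cells were 1.95% and 3.31% without TNF, against 5.16% and 6.46% with it (means of the mice). Both count in the calls and in the list median, which therefore depend in part on this filter. *C3* went from 7.72 to 561 CPM in mouse 1 and from 32.3 to 855 CPM in mouse 2. The factors themselves had values of 0.32 for *Cebpb*, 0.38 for *Cebpd* and 0.57 for *Nfkbiz* and did not pass. Of 6 tested receptors of serum amyloid A, *Tlr2* rose (log2 2.14, SE 0.14, adjusted p = 0.0073), and the others, which include *Tlr4*, *Cd36* and *Scarb1*, did not pass.

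Around *Acod1*, 0 of 18 genes of the tricarboxylic acid cycle and itaconate breakdown passed in edgeR with the block, by which 3649 of 17034 genes had an unadjusted p under 0.05, and their median was 0.29. Citrate synthase *Cs*, *Sdha* and the itaconate pathway gene *Clybl* were among those higher in every plate, with log2 values of 0.40, 0.30 and 0.49, and *Suclg2* was lower in every plate at -0.90. Of 10 genes of the NRF2 and ATF3 responses that itaconate is known to touch, the cystine carrier gene *Slc7a11* (log2 1.69), *Gclm* (0.85) and *Txnrd1* (0.84) rose and none fell. *Hmox1* and *Nfe2l2* were higher in all 4 plates without passing the test.

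Around *Gpr84*, the fatty acid receptor gene *Ffar4* (log2 4.54) and the hydroxycarboxylic acid receptor gene *Hcar2* (3.72) rose among 3 tested receptors, both from low levels, 0.066 to 1.83 CPM in mouse 1 and 0.214 to 4.35 CPM in mouse 2 for *Ffar4*. *Ffar4* and *Hcar2* passed the 5% filter only when TNF was added, and *Ffar1*, *Ffar2* and *Ffar3* were below the filter. Of 10 Gi signalling genes, *Rgs1*, which ends Gi signals, rose (1.25) and the G protein subunit gene *Gng2* fell (-0.71). *Lcn2* itself was near 0. Of its 8 tested partners in iron handling and binding, the protease gene *Mmp9*, whose product binds lipocalin-2, was higher with TNF (log2 7.36, SE 0.70). *Mmp9* went from 0.055 to 21.8 CPM in mouse 1 and from 0.0712 to 4.51 CPM in mouse 2. It was found in 2.35% of IL4+IL13 cells and met the 5% filter only through IL4+IL13+TNF cells, so no p is given. The ferritin gene *Fth1* rose by 0.50. Of 5 tested genes of the *Slpi* group, *Plscr4* (-1.48) and the whey acidic protein gene *Wfdc17* (-1.36) fell, and the neutrophil protease genes *Elane*, *Ctsg* and *Prtn3* were below the filter.

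As a reference, 9 of 15 tested TNF response genes rose and 0 fell (median log2 2.01), among them *Clec4e* (5.09), *Ass1* (2.65) and *Sod2* (2.01). Of 8 M2 genes 5 fell and 0 rose (median -1.22), namely *Retnla* (-4.13), *Il10* (-2.17), *Apoe* (-1.66), *Clec10a* (-1.54) and *Mrc1* (-0.89). *Il10* was found in 11.8% of IL4+IL13 cells and in 4.31% of IL4+IL13+TNF cells, so it met the 5% filter only through IL4+IL13 cells. Across IL4+IL13+TNF cells, the median rho of the 7 M2 genes found in at least 10% of cells was 0.0305 with *Saa3*, -0.0252 with *Acod1* and -0.00332 with *Gpr84*, whereas that of the 15 TNF response genes was 0.0718, 0.111 and 0.069. The median over all 14046 genes was 0.0195, 0.0130 and 0.0188, below the M2 value for *Saa3* and above it for *Acod1* and *Gpr84*.

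**Figure D5:**
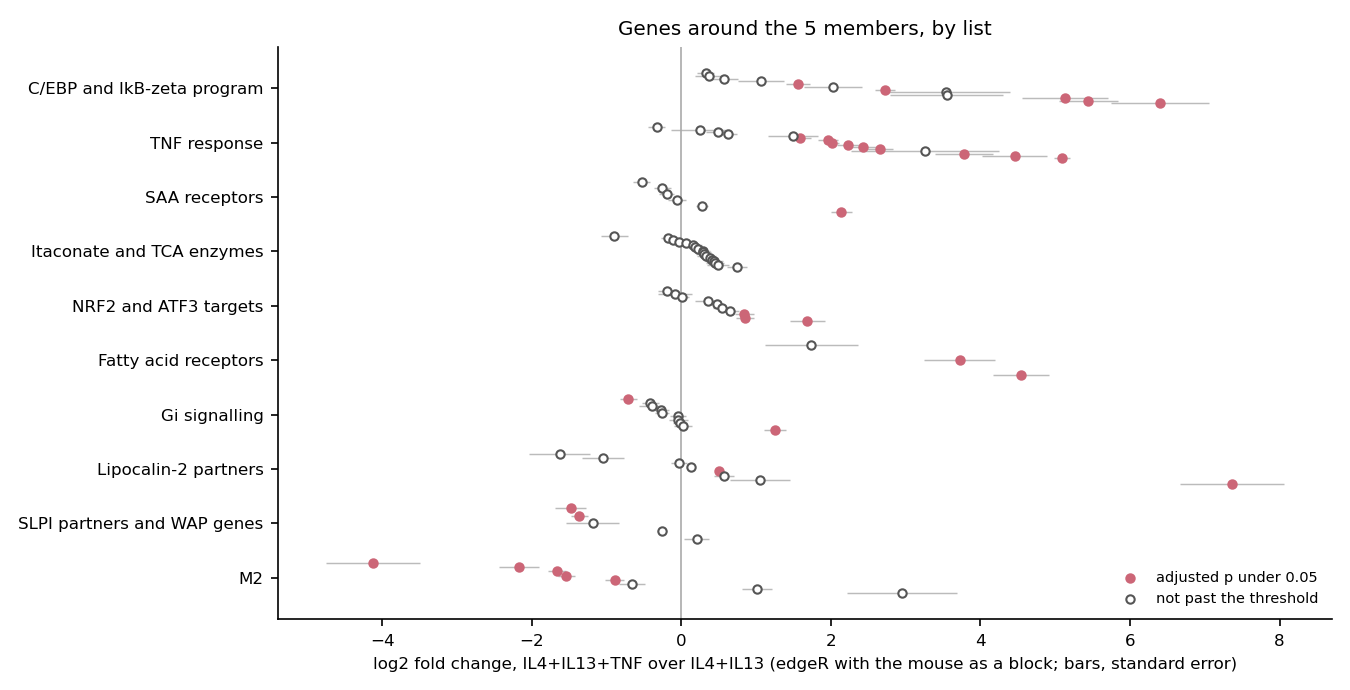
Log2 fold change of IL4+IL13+TNF over IL4+IL13 (horizontal axis, edgeR with the mouse as a block) for the tested genes of the lists named on the vertical axis; bars are standard errors. Filled points have an adjusted p under 0.05. In the C/EBP and IκBζ list 5 of 12 genes are filled, of which *Hp* and *Il6* met the filter only through IL4+IL13+TNF cells. The same holds for *Ffar4*, *Hcar2* and *Mmp9* in their lists. Of the tricarboxylic acid cycle and itaconate genes 0 of 18 are filled.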

How the data were processed

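Smart-seq2 libraries of single cells were analysed for 1524 of 1528 samples. The labels of 4 samples give no mouse, and 3 of these have a column. The authors deposited a single table with raw counts, genes by wells. Per its header and the paper, gsnap aligned the reads to mm10, and featureCounts 1.6.3 counted unique fragments on Ensembl 98 genes without using strand. The deposited counts carry no molecular identifiers, so PCR copies are counted. 92 spike-in rows stayed out of totals, 8 columns matching no sample were not used, and no doublet caller was run on cells sorted singly.

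The members and the gene lists were chosen with earlier results of these data known. Named genes are the 5 members, the genes of the lists, and for each member the 5 genes of highest and 2 of lowest mean correlation. Wells more than 3 median absolute deviations from their plate's median (log total and log detected genes below, mitochondrial or spike-in share above) were left out. Counts were summed per mouse and treatment, or per plate and treatment, over kept cells, and tested with edgeR 4.0.16 in R 4.3.3 (quasi-likelihood test, TMM, Benjamini-Hochberg, threshold 0.05) on genes found in at least 5% of cells of a treatment that passed filterByExpr. DESeq2 1.42.0 was an alternative. The method was tested on simulated counts. For a single value, 2 mice against 2 give no exact permutation p below 0.333. Unless said otherwise, shares used cells thinned to 339000 fragments, and 136 cells below this depth were left out (mouse 1: 25 without and 44 with TNF, mouse 2: 24 and 43). Shares of a member among cells with 5 or more fragments of another used all kept cells without thinning. CPM of single cells use all gene fragments of the cell, and CPM of sums use TMM. Python 3.11.15, numpy 2.4.6, pandas 2.3.3, scipy 1.17.1 and matplotlib 3.10.9 were used. The series is described as holding cells of 2 separate mice. No label spells out which, and a digit in the sample titles, shared by both treatments, was read as the mouse. On that reading the numbers pair the samples, and deviations of same-numbered sums from the treatment means correlated with r = 0.568 over 17034 genes.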

Additional observations from a re-analysis of the deposited data

Results flagged for a closer look

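Among 35 groups of 4 plates in which the gap of the highest or lowest plate was compared with the range, 4 stood apart, and chance alone sets apart about 1 in 20 groups. The median *Acod1* level of IL4+IL13 cells with the gene was 3.14 CPM on plate 2, against 2.24 to 2.31 CPM on the others. In IL4+IL13+TNF cells it was 71.8 CPM on plate 3, against 134 to 143 CPM. The share of IL4+IL13 cells with *Lcn2* was 0% on plate 2, against 0.602% to 0.680%, and plate 2 alone had IL4+IL13+TNF cells with at least 5 *Lcn2* fragments, 0.781% or 1 cell.

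The 3 wells with a column whose labels give no mouse name IL4+IL13 as the treatment, although they stood in row P among the IL4+IL13+TNF wells, and they entered no comparison. They held 279461, 354874 and 87198 fragments on plates 3, 4 and 5. *Saa3* was at 114.5, 138.1 and 527.5 CPM in them, where 99.7%, 99.7% and 100% of the labelled IL4+IL13 cells were lower, and *Acod1* was at 110.9 CPM on plate 3 and 118.4 CPM on plate 4, where 98.7% of those cells were lower, and at 22.94 CPM (2 fragments) on plate 5. *Lcn2* and *Slpi* had 0 fragments in all 3. What these wells held is not given in the sources used here.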

How the results depend on the processing

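The *Acod1* difference between the mice with IL4+IL13, which passed its test, kept its direction under every alternative run. The direction of the list genes under the alternatives was not followed. The *Saa3* difference between the mice with IL4+IL13+TNF, which did not pass, lay between -0.53 and 0.32 on the log2 scale without 1 plate. Between the treatments, calls numbered 1 without the block, 651 with the mouse as a block, 598 with DESeq2 and 4 to 30 without 1 sum. Calls of the mouse by treatment test were 0, and 129 with DESeq2, 1 with no gene filter and 0 with the plate as a block. Calls between the mice in IL4+IL13 were 1167, and 3269 with DESeq2 and 0 to 1 without 1 plate. In IL4+IL13+TNF they were 36, and 1722 with DESeq2, 252 with no gene filter and 0 without 1 plate, where 1 mouse is left with 1 plate that is assumed to vary like the rest. The causes of these changes were not tested beyond the fewer sums. The difference in share of cells between the treatments, in percentage points, was 37.5 for *Saa3* and 30.6 at 5 or more fragments, 56.7 for *Acod1* and 53.3 without thinning, and 26.8 for *Gpr84* and 17.9 at 5 or more fragments. The log2 fold change of *Acod1* was 5.25, 5.78 with the block and 7.54 without the IL4+IL13 sum of mouse 2. That of *Slpi* was 2.34, 3.79 with the block and 11.97 without that sum, values that depend on the 0 fragments of mouse 1. No call is given for a member between the treatments, so the block changes none. The mean rho of *Saa3* and *Slpi* was 0.0451, and 0.268 over 2 plates in cells with both genes. Depth limits *Lcn2* above all, since 21 fragments allow no statement on its change.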

Other observations

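Of the genes linked to the members by function, a few also differed between the mice with IL4+IL13 alone, where 6.85% of all genes passed. Of 18 tricarboxylic acid cycle and itaconate genes, 3 were lower in mouse 2, namely *Idh2* (log2 -0.91, adjusted p = 0.0367), *Idh3a* (log2 -0.74, adjusted p = 0.0376) and *Suclg1* (log2 -0.48, adjusted p = 0.0455, edgeR over plates), and 0 were higher. Of 12 genes of the C/EBP and IκBζ list, complement *C3* was higher, at 7.72 CPM in mouse 1 and 32.3 CPM in mouse 2 (log2 2.07, adjusted p = 0.0172 by edgeR). Of 6 receptors of serum amyloid A, *Cd36* was lower in mouse 2 (log2 -1.05, adjusted p = 0.0133 by edgeR). These calls rest on 2 plates per mouse, and leaving out 1 plate left 0 to 1 calls among all genes.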
